A study of Homo sapiens with 47 samples.

Results

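The genes described here encode SNAPc, the factor that reads the promoters of small nuclear RNA (snRNA) genes, and the proteins that work with it there. They were taken as a list of 10 symbols, SNAPC1, SNAPC2, SNAPC3, SNAPC4, SNAPC5, POU2F1, ZNF143, TBP, BRF2 and BDP1. All 10 were found among the 58395 genes counted, and all 10 were among the 28025 that passed the filter on low counts. HEK293T cells, a human embryonic kidney line, were compared with an EAF1-mutant HEK293T line by RNA-seq after removal of ribosomal RNA, using 3 libraries per line. In the mutant line, which the methods describe as 1 clone made by CRISPR, residues of the EAF1 C-terminal region that bind MED26 were changed to alanine on both alleles; the wild-type cells carry no such change. The comparison asks how RNA levels differ when the contact of the little elongation complex with Mediator through EAF1 is lost. Counts summed to 59137210, 52541541 and 55637032 in wild-type cells and to 57198018, 53369621 and 66611451 in EAF1-mutant cells.

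At an snRNA promoter, SNAPc binds the proximal sequence element, while POU2F1 (Oct-1) and ZNF143 bind the distal element and raise transcription. The same complex serves both polymerases. At promoters without a TATA box it leads to RNA polymerase II, as for U1, U2, U4, U5 and U7 snRNA, and at promoters with one, such as those of U6 snRNA and 7SK, TBP joins BRF2 and BDP1 in a form of TFIIIB that recruits RNA polymerase III. These factors are part of the basic transcription machinery and are expressed in most cell types.

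EAF1 itself had 57.4, 58.4 and 56.5 counts per 1e6 (CPM, scaled to library sizes adjusted by edgeR's TMM method) in the wild-type libraries and 19.7, 17.9 and 18.8 CPM in the EAF1-mutant libraries. The groups did not overlap, and the log2 fold change was -1.61 (standard error 0.05, adjusted p = 2.48e-18, edgeR's quasi-likelihood test with Benjamini-Hochberg adjustment over all 28025 tested genes). The mutation is a change of a few residues, so the level of this RNA does not check the labels. The 84 other tested genes whose start lies within 5 Mb of the start of EAF1 had a median log2 fold change of -1.41, and 74 of them were below 0. Because RNA levels of neighbouring genes shifted together in some stretches of chromosomes, the median of such neighbours is given beside many of the genes below. The mutation and any other property of the 1 mutant line cannot be told apart in this design.

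The 7 markers of HEK293T cells checked here (VIM, KRT8, KRT18, NEFL, NEFM, INA and PAX2) had counts in every library, with VIM the most abundant. Their summed level was 548.5, 557.3 and 577.4 CPM in the wild-type libraries and 397.6, 396.5 and 406.4 CPM in the EAF1-mutant libraries. Within that sum NEFM (log2 fold change -1.31), VIM (-0.93, beside a neighbour median of -0.45) and NEFL (-0.15) fell at an adjusted p under 0.01 (edgeR), while KRT8 (1.38) and KRT18 (0.82) rose. INA (-0.03, 95% interval -0.20 to 0.13) and PAX2 (0.33, 95% interval -0.13 to 0.80) did not pass the test. Of 6 markers of other cell types (PTPRC, CD3E, LYZ, ALB, PECAM1 and DCN), none passed the filter and none exceeded 13 counts in any library. Their summed counts were 16, 24 and 13 in the wild-type libraries and 19, 28 and 36 in the EAF1-mutant libraries, and CD3E was at 0 in all but 1 library. The part of these shifts in the results below was not tested. The paper reports biological replicates of each experiment, and the p-values measure the spread between these libraries.

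Promoter windows of 300 bases, 250 before and 50 after a gene start, were taken from RefSeq on GRCh38.p14. They covered 8 of the 10 genes with 11 windows. The set of windows used had no entry for SNAPC4 and BRF2. Both strands were searched for ATGCAAAT, the octamer that POU2F1 binds (ATTTGCAT on the other strand), for ACTACAA, with which the ZNF143 site begins, and for TATAAA, the TATA box bound by TBP. The octamer was in 1 of the 11 windows and in 1.77% of all 35116 windows. ACTACAA was in 1 of the 11 and in 2.77% of all windows, and TATAAA was in none of the 11 and in 11.5% of all windows. The 3 windows printed are the only matches among these genes and, with no match, that of SNAPC5, a subunit whose RNA changed. Capitals mark the matches. The window of SNAPC3 is chr9:15422626-15422925 on the plus strand, and its ACTACAA begins 66 bases before the gene start. The window of POU2F1 is chr1:167328820-167329119 on the plus strand, the last of 3 for this gene and inside the gene as annotated, and its octamer lies on the opposite strand, 179 bases before that start. The window of SNAPC5 is chr15:66497713-66498012 on the minus strand.
SNAPC3: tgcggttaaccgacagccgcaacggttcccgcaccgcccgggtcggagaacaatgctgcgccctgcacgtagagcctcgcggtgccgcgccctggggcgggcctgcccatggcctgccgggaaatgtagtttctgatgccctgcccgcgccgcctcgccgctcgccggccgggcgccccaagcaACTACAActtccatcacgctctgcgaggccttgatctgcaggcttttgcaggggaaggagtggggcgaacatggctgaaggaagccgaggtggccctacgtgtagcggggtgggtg
POU2F1: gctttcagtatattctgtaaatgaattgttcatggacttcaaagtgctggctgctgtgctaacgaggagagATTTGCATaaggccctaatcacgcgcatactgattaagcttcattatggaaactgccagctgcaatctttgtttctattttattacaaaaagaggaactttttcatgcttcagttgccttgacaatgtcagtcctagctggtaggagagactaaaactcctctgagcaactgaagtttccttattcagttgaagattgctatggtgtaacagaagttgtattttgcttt
SNAPC5: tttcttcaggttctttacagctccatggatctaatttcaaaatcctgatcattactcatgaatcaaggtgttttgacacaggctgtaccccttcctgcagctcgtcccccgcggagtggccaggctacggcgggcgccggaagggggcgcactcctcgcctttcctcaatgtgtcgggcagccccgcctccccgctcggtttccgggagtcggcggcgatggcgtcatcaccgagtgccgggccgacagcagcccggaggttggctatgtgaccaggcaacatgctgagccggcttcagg
A match of letters is a description of the window and not a binding site.

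Of the 10 genes, SNAPC4 and SNAPC5 rose and POU2F1 fell in EAF1-mutant cells at an adjusted p under 0.01 (edgeR), while the other 7 did not pass this test. That is 2 genes higher, where 20.5% of all tested genes were called higher, and 1 gene lower, where 21.1% were. At the study's thresholds, which add a log2 fold change over 0.5 in size, SNAPC4 was the 1 gene called higher, beside 11.0% of all tested genes, and 0 were called lower, beside 9.36%. For that 0, DESeq2 also called 0, where it called 2418 of the 28025 tested genes lower. At an unadjusted p under 0.05, edgeR put 4 of the genes lower and DESeq2 put 3 lower. The share of all tested genes at that unadjusted p was not counted, so these counts are read no further. In 6 of the 10 genes all EAF1-mutant libraries lay on one side of all wild-type libraries, as in 57.3% of all tested genes. The median log2 fold change of the 10 genes was 0.00 and that of all tested genes 0.01, so as a list these factors lay close to the background.

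**Figure D1:**
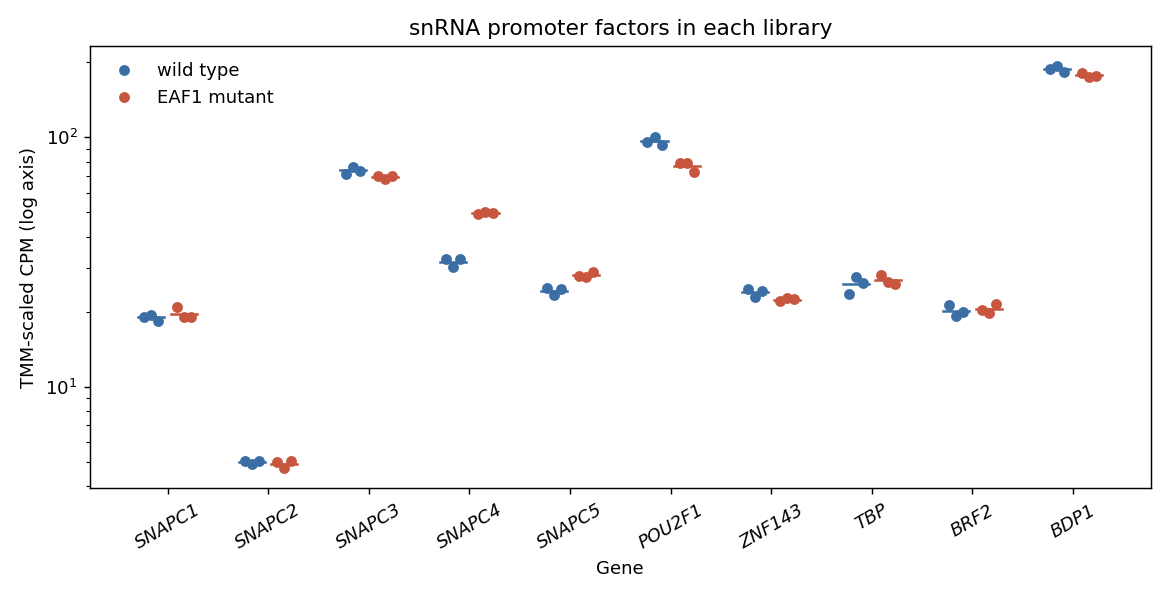
TMM-scaled CPM of the 10 snRNA promoter factors (log axis) in 3 wild-type libraries (blue points) and 3 EAF1-mutant libraries (red points), with short lines at the group means. The mutant points of SNAPC4 and SNAPC5 lie above all wild-type points and those of POU2F1, SNAPC3, ZNF143 and BDP1 below them, while the groups of SNAPC1, SNAPC2, TBP and BRF2 overlap.

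SNAPC4 (ENSG00000165684, chromosome 9, 136375567 to 136400176, minus strand) encodes the largest SNAPc subunit, whose Myb repeats contact the DNA of the proximal sequence element. It had 32.5, 30.3 and 32.5 CPM in the wild-type libraries and 49.3, 50.2 and 49.9 CPM in the EAF1-mutant libraries. Every mutant library was above every wild-type library, and both groups were tight. The means were 31.8 ± 1.28 CPM (SD, n = 3) and 49.8 ± 0.460 CPM (SD, n = 3), a fold change of 1.57 (95% interval 1.47 to 1.67; log2 fold change 0.65 with a standard error of 0.04, edgeR adjusted p = 9.14e-12). Around it on the long arm of chromosome 9, 141 of 165 neighbours were above 0 and their median was 0.37. The change of SNAPC4 lay above this median by 0.28, and 34 of the 165 neighbours had a larger one. That distance depends on the window, since the median was 0.45 within 2 Mb and 0.22 within 10 Mb. No other counted gene overlaps SNAPC4.

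SNAPC5 (ENSG00000174446, chromosome 15, 66490135 to 66497780, minus strand), the smallest subunit, rose less. It had 24.9, 23.4 and 24.6 CPM in the wild-type libraries and 27.9, 27.6 and 28.9 CPM in the EAF1-mutant libraries. The groups did not overlap, but the fold change was only 1.16 (95% interval 1.08 to 1.24; log2 fold change 0.21 with a standard error of 0.05, edgeR adjusted p = 4.77e-04). Its neighbours went the other way, with a median of -0.26 (-0.19 within 10 Mb) and 107 of 143 below 0, and 18 of the 143 had a larger log2 fold change than SNAPC5. MAP2K1 overlaps SNAPC5 on the opposite strand, and ENSG00000261351 and MIR4512 overlap it on the same one. Whether counting used the strand is unknown here, and reads of these genes may be mixed.

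The other SNAPc subunits gave no change past the test. SNAPC1, which binds SNAPC4 and SNAPC3 to form the core of the complex, had 19.0 ± 0.523 CPM in wild-type cells and 19.6 ± 1.05 CPM in EAF1-mutant cells (SD, n = 3 each). Its log2 fold change was 0.05 (95% interval -0.06 to 0.16; 0.16 with library totals alone), within a stretch of chromosome 14 where the median of 111 neighbours was -0.21. SNAPC3, which also contacts DNA, had 73.7 ± 2.38 and 69.5 ± 1.04 CPM, and all mutant libraries lay below the wild-type ones (log2 fold change -0.08, adjusted p = 0.0762, edgeR; 0.03 with library totals alone, neighbour median 0.05). SNAPC2, a subunit held in the complex by SNAPC4, was the least abundant of the 10 genes, with 4.99 ± 0.0741 and 4.92 ± 0.181 CPM, and its log2 fold change of -0.02 had a 95% interval of -0.20 to 0.16 (0.10 with library totals alone, 0.01 without EAF1-mutant replicate 2). As a ratio of levels per kb of exon, SNAPC4 to SNAPC3 was 0.308, 0.269 and 0.302 in the wild-type libraries and 0.477, 0.499 and 0.483 in the EAF1-mutant libraries. The ratio of SNAPC4 to SNAPC1 went from 0.578 ± 0.0375 to 0.876 ± 0.0529 (SD, n = 3 each). The RNAs of the subunits therefore stood in other proportions in the lines, with SNAPC4 higher against both partners in every mutant library.

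Among the activators, POU2F1 (ENSG00000143190, chromosome 1, 167220876 to 167427345, plus strand) fell. It encodes Oct-1, a POU-domain protein that contacts SNAPC4 on neighbouring DNA. It had 95.5, 100.3 and 93.3 CPM in the wild-type libraries and 79.0, 78.9 and 72.9 CPM in the EAF1-mutant libraries. All mutant libraries lay below all wild-type ones, at a fold change of 0.798 (95% interval 0.752 to 0.848; log2 fold change -0.32 with a standard error of 0.04, edgeR adjusted p = 6.34e-07). This stretch of the long arm of chromosome 1 had a neighbour median of -0.33, nearly the value of POU2F1, with 68 of 92 neighbours below 0. ZNF143, a zinc finger protein that binds next to the octamer in many snRNA promoters, had 24.0 ± 0.895 CPM in wild-type cells and 22.4 ± 0.298 CPM in EAF1-mutant cells. All mutant libraries lay below the wild-type ones, but its log2 fold change of -0.10 did not pass the test (adjusted p = 0.0872, edgeR) and was 0.02 with library totals alone.

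The 3 proteins of the RNA polymerase III form of TFIIIB gave no change past the test. TBP, which serves all 3 polymerases, had 23.5, 27.7 and 26.2 CPM in the wild-type libraries and 28.1, 26.2 and 25.7 CPM in the EAF1-mutant libraries. Its groups overlapped and its log2 fold change was 0.05 (95% interval -0.06 to 0.16, neighbour median 0.08), or -0.03 without wild-type replicate 1 and 0.17 with library totals alone. BRF2, the TFIIB-related factor found only at this type of promoter, had 20.2 ± 1.01 and 20.5 ± 0.828 CPM (log2 fold change 0.03, 95% interval -0.08 to 0.14, neighbour median 0.13; 0.14 with library totals alone); it was -0.02 without wild-type replicate 2 and -0.01 without EAF1-mutant replicate 3. BDP1, the SANT-domain subunit, had 188.2 ± 4.87 and 177.4 ± 3.98 CPM (SD, n = 3 each). Its mutant libraries all lay below the wild-type ones, at a log2 fold change of -0.09 (95% interval -0.16 to -0.01, adjusted p = 0.0532, edgeR), or 0.03 with library totals alone. Over the 7 genes that did not pass the test, the 95% intervals of the log2 fold change, with TMM scaling, all lay between -0.20 and 0.16.

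**Figure D2:**
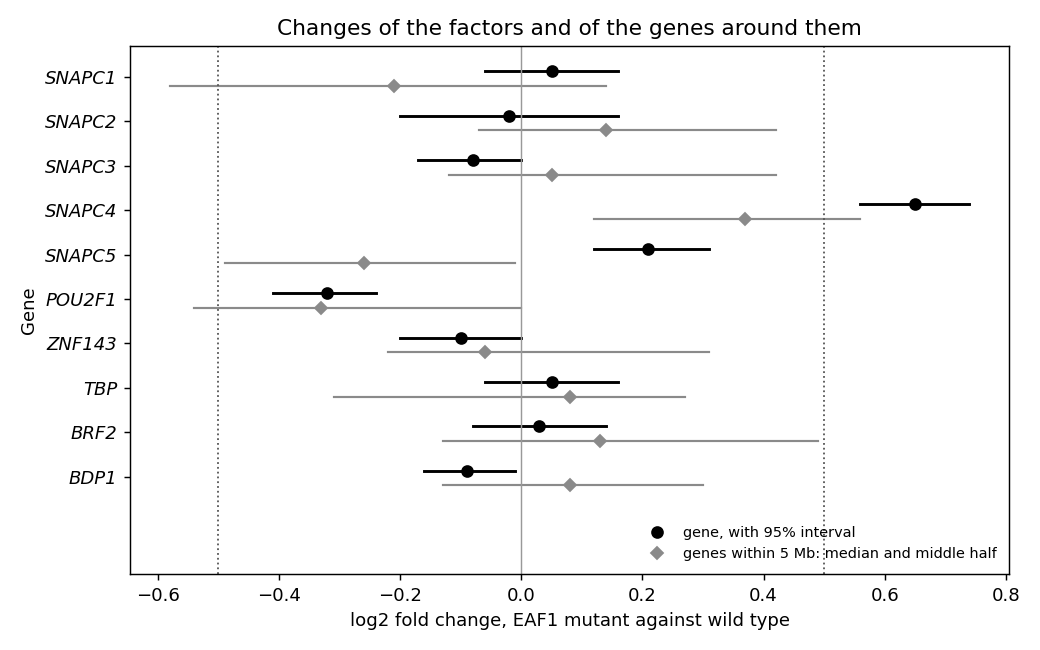
Log2 fold change of each factor in EAF1-mutant against wild-type cells (black points, lines for 95% intervals), with the median (grey diamonds) and the interquartile range (grey lines) of the tested genes within 5 Mb; dotted lines mark 0.5 in either direction. POU2F1 at -0.32 lies on its neighbours' median of -0.33, SNAPC4 at 0.65 lies above a raised median of 0.37, and SNAPC5 at 0.21 lies opposite a median of -0.26.

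The 10 genes sit on 9 chromosomes, with SNAPC3 and SNAPC4 on opposite arms of chromosome 9. Neighbour medians of the 7 genes not past the test ran from -0.21 at SNAPC1 to 0.14 at SNAPC2, and they depend on the window. Within 10 Mb SNAPC1 had -0.12 and BDP1 0.04 instead of 0.08. Within 2 Mb SNAPC2 had 0.24, and ZNF143, at -0.06 within 5 Mb, had -0.18 within 2 Mb and 0.02 within 10 Mb. In 7 of the 10 genes another counted gene overlaps in position, as PSIP1 does with SNAPC3 and ADGRA2 with BRF2, both on the opposite strand.

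Levels were compared between genes as CPM per kb of exon, with exons of all transcripts of a gene merged. In wild-type cells BDP1 was highest at 15.2 ± 0.392 CPM per kb (SD, n = 3), followed by SNAPC3 at 14.4 ± 0.467, and their libraries overlapped. TBP at 11.1 ± 0.900 and SNAPC5 at 9.82 ± 0.321 came next, apart from each other. BRF2 at 7.42 ± 0.372 and SNAPC1 at 7.32 ± 0.202 overlapped, as did POU2F1 at 6.01 ± 0.225 and ZNF143 at 5.68 ± 0.212. SNAPC4 followed at 4.22 ± 0.171 and SNAPC2 was lowest at 2.16 ± 0.0320, so that the highest and lowest levels differed 7.04-fold. In EAF1-mutant cells BDP1, at 14.3 ± 0.321, was again highest and SNAPC2, at 2.12 ± 0.0782, again lowest. SNAPC4 stood at 6.62 ± 0.0612, above ZNF143 at 5.30 ± 0.0706 and POU2F1 at 4.80 ± 0.218, with no overlap among these 3, and TBP at 11.5 ± 0.532 and SNAPC5 at 11.4 ± 0.272 now overlapped.

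**Figure D3:**
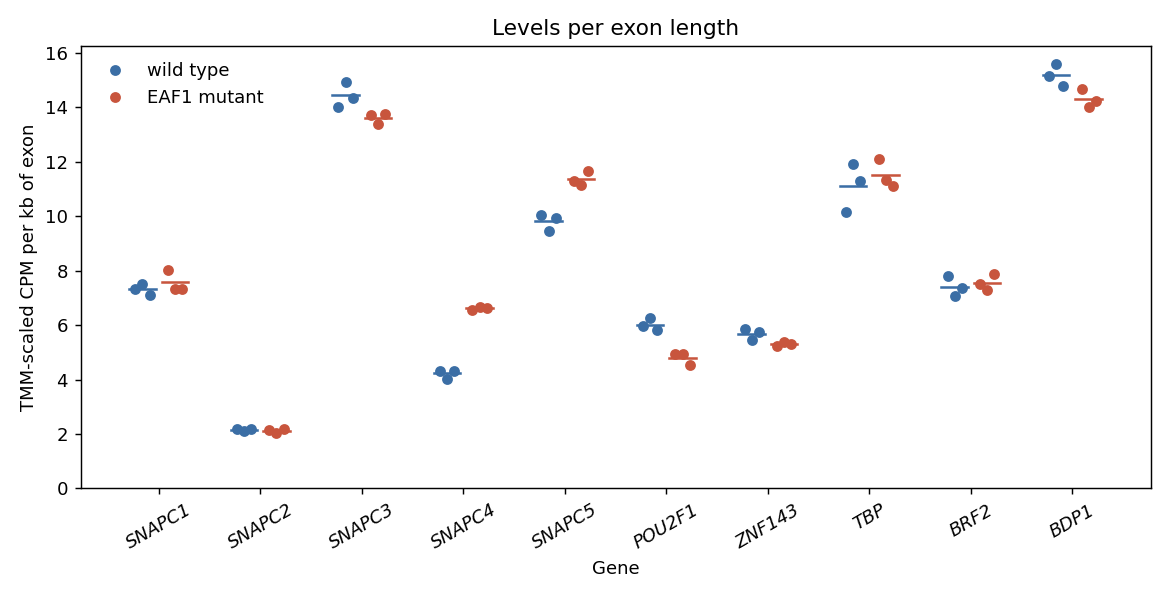
Levels of the 10 factors in TMM-scaled CPM per kb of merged exon in 3 wild-type libraries (blue) and 3 EAF1-mutant libraries (red), with lines at the means. BDP1 and SNAPC3 are highest and SNAPC2 lowest in both lines, and SNAPC4 is above ZNF143 and POU2F1 only in the mutant line.

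Over the 6 libraries, the genes whose centred log2 CPM lay nearest to that of SNAPC4, among 19218 others averaging 1 CPM or more, were SAPCD2 on chromosome 9 (Euclidean distance 0.0378), SLC35E2B on chromosome 1 (0.0382) and SYNJ2 on chromosome 6 (0.0471). SAPCD2 had 46.6, 41.9 and 46.2 CPM in the wild-type libraries and 70.3, 70.9 and 70.6 CPM in the EAF1-mutant libraries. As they were chosen for this closeness, they were, like SNAPC4, lower in every wild-type library and nearly level among the mutant ones.

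Partner factors were described over a list of 41 genes of the same machinery, all tested. At an adjusted p under 0.01 (edgeR), 10 rose and 13 fell, where 20.5% and 21.1% of all tested genes did. With library totals alone, 17 rose and 7 fell, where 8339 and 4138 of the 28025 tested genes did. The balance between the directions thus depends on the scaling, in this list and over all tested genes. At the study's thresholds 2 rose and 4 fell, beside 11.0% and 9.36% of all tested genes, and the median was -0.01. The largest rise was that of ZNF76, the close relative of ZNF143 that binds the same site. ZNF76 had 24.2, 22.8 and 23.7 CPM in the wild-type libraries and 47.8, 51.4 and 49.5 CPM in the EAF1-mutant libraries, a fold change of 2.10 (95% interval 1.97 to 2.25; log2 fold change 1.07 with a standard error of 0.04, edgeR adjusted p = 2.82e-15). Its neighbours on the short arm of chromosome 6 had a median of 0.21, and 22 of 280 had a larger change. The ratio of ZNF76 to ZNF143 in CPM per kb was 0.612 ± 0.00497 in wild-type cells and 1.38 ± 0.0337 in EAF1-mutant cells (SD, n = 3 each). The member of the pair with more RNA per length was thus ZNF143 in each wild-type library and ZNF76 in each mutant library.

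The relatives of the other factors moved less or had little RNA. POU2F2 (Oct-2), mainly a factor of B cells, rose from 0.619, 0.693 and 0.691 CPM to 0.957, 1.31 and 1.07 CPM (log2 fold change 0.73, edgeR adjusted p = 0.00239, neighbour median 0.18), and its level per kb was 0.0123 of that of POU2F1 in wild-type cells. Its counts ran from 35 to 74 per library. The call was lost without wild-type replicate 1 (log2 fold change 0.67, edgeR adjusted p = 0.0121) and without EAF1-mutant replicate 2 (0.61, edgeR adjusted p = 0.0221). It was also lost by DESeq2 (0.73, adjusted p = 0.0118). POU2F3 had at most 20 counts in any library (log2 fold change 0.31, 95% interval -0.42 to 1.03). Leaving out wild-type replicate 1 put it at 0.14, wild-type replicate 3 at 0.55 and EAF1-mutant replicate 2 at 0.10. BRF1, which takes the place of BRF2 at tRNA and 5S rRNA genes, rose from 39.2, 36.3 and 38.6 CPM to 41.3, 45.1 and 43.5 CPM (log2 fold change 0.19, adjusted p = 0.00135, edgeR, neighbour median 0.10), with an adjusted p of 0.0110 without wild-type replicate 2 and 0.0174 without EAF1-mutant replicate 2. TBPL1, the TBP-like factor, had a log2 fold change of -0.01 (95% interval -0.11 to 0.09), which became 0.10 with library totals alone and 0.02 without EAF1-mutant replicate 2. Without wild-type replicate 1 or without EAF1-mutant replicate 2, 1 partner passed the study's thresholds as higher instead of 2, and without wild-type replicate 2, 4 did. Of all tested genes, 2924 of 28841, 2818 of 28723 and 2790 of 28961 passed as higher in these fits, in the same order.

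The 4 partners that fell at the study's thresholds were GTF3A, TAF9B, TAF1A and TAF1. GTF3A (TFIIIA), the factor that opens 5S rRNA genes to RNA polymerase III, went from 104.7, 109.8 and 108.4 CPM to 61.0, 56.8 and 59.8 CPM (log2 fold change -0.86 with a standard error of 0.04, edgeR adjusted p = 1.65e-14). Its neighbours on chromosome 13 had a median of -0.07, and 1 of 77 fell further. TAF9B and TAF1, subunits of the TBP complex TFIID, had log2 fold changes of -0.76 and -0.59 and lie on chromosome X where neighbour medians were -0.56 and -0.55. With library totals alone TAF1 was at -0.48, past the adjusted p but not the fold threshold, so that 3 partners were then called lower. Over all tested genes 1840 were called lower in that fit. TAF1A, a subunit of the TBP complex for RNA polymerase I, had -0.66 beside a neighbour median of -0.28. Of the 7 general factors of RNA polymerase II, 1 rose and 2 fell at an adjusted p under 0.01 (edgeR), and of the 9 RNA polymerase III factors 3 rose and 4 fell, beside 20.5% and 21.1% of all tested genes. Lists this short are read no further.

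Genes with SNAPc-dependent promoters were listed as targets by symbol, 21 symbols of RNA polymerase II and 14 of RNA polymerase III. Of these 35 symbols, 32 matched a counted gene and 29 were tested, as RNU2-1, RNY3 and RNY4 had too few counts. The list held both RNU2-2 and RNU2-2P, and only RNU2-2P matched. These genes are annotated as short, with 63 to 699 bases of merged exon, and many have near-identical copies, so their counts are uncertain. All 19 tested RNA polymerase II targets had a log2 fold change below 0, also with library totals alone, and their median was -0.67. At an adjusted p under 0.01 (edgeR), 14 fell, beside 21.1% of all tested genes, and 5 did not pass. The U1 genes changed less than this median, with RNU1-1 at -0.27 and RNU1-3 at -0.28, past the test. RNU1-2 and RNU1-4, at -0.14 each, and RNU2-2P, at -0.19, had overlapping libraries and did not pass it. SNORD3A, the most abundant, had -0.52. At the study's thresholds 11 of the 19 fell, beside 9.36% of all tested genes, and 0 rose, beside 11.0% (edgeR). With DESeq2 0 also rose, where 2638 of the 28025 tested genes did. With either tool 0 were higher at an unadjusted p under 0.05. The share of all tested genes at that unadjusted p was not counted, so this last 0 is read no further. Neighbour medians of these 19 genes ran from -0.20 to 0.46, most of them above 0. Among those with a mean of at least 1 CPM over all libraries, SNORD13 (U13 snoRNA) had the largest change, from 1.26, 1.82 and 1.63 CPM to 0.605, 0.396 and 0.811 CPM (log2 fold change -1.34, adjusted p = 1.07e-05, edgeR, neighbour median 0.14). SNORD13 had 22 to 92 counts per library and passed this cut only through its wild-type level. RNU5A-1, with group means of 1.37 and 0.507 CPM, missed the cut and had a larger change of -1.47. RNU11, an snRNA of the minor spliceosome, had 3.82, 4.18 and 3.51 CPM in the wild-type libraries and 1.65, 1.49 and 1.78 CPM in the EAF1-mutant libraries (log2 fold change -1.22, adjusted p = 1.16e-08, edgeR, neighbour median 0.07). RNU12 and RNU5D-1 followed at -1.13 and -1.06. Without EAF1-mutant replicate 2 this order changed, with RNU12 at -1.19, RNU11 at -1.16 and SNORD13 at -1.13.

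The 10 tested RNA polymerase III targets were mixed, with a median of -0.13, 2 higher and 3 lower at the study's thresholds, beside 11.0% and 9.36% of all tested genes. RN7SK, the RNA that holds P-TEFb inactive, rose from 14300.0, 13650.0 and 13670.0 CPM to 19960.0, 20560.0 and 20340.0 CPM (log2 fold change 0.55 with a standard error of 0.03, edgeR adjusted p = 1.10e-12), where its neighbours had a median of 0.01. RNU6-9, a copy of the U6 snRNA gene, rose by the same log2 fold change of 0.55, from a mean of 1.02 to one of 1.48 CPM (adjusted p = 0.00501, edgeR, neighbour median 0.12). This call was lost by DESeq2 (0.0262), without wild-type replicate 1 (0.0210) or 3 (0.0237) and without EAF1-mutant replicate 2 (0.0225) or 3 (0.0149), each of which leaves 1 RNA polymerase III target called higher. In these fits 2638 to 2924 of all tested genes passed the study's thresholds as higher. RPPH1, the RNA of RNase P, had 6654, 5622 and 6192 CPM in the wild-type libraries and 3838, 3960.0 and 4026 CPM in the EAF1-mutant libraries. It fell (log2 fold change -0.64 with a standard error of 0.04, edgeR adjusted p = 1.93e-11) on a stretch of chromosome 14 whose neighbour median was -0.54. RNU6-8 fell (-0.51, adjusted p = 0.00518, edgeR) beside a neighbour median of -0.51, and its adjusted p was 0.0226 by DESeq2, 0.0256 with library totals alone, 0.0149 without wild-type replicate 2, and 0.0144 and 0.0314 without EAF1-mutant replicate 1 and 3. The remaining gene lower at these thresholds, RNY1, named after its values were seen, had a log2 fold change of -0.59 (edgeR adjusted p = 0.00817, near the limit) beside a neighbour median of -0.61.

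**Figure D4:**
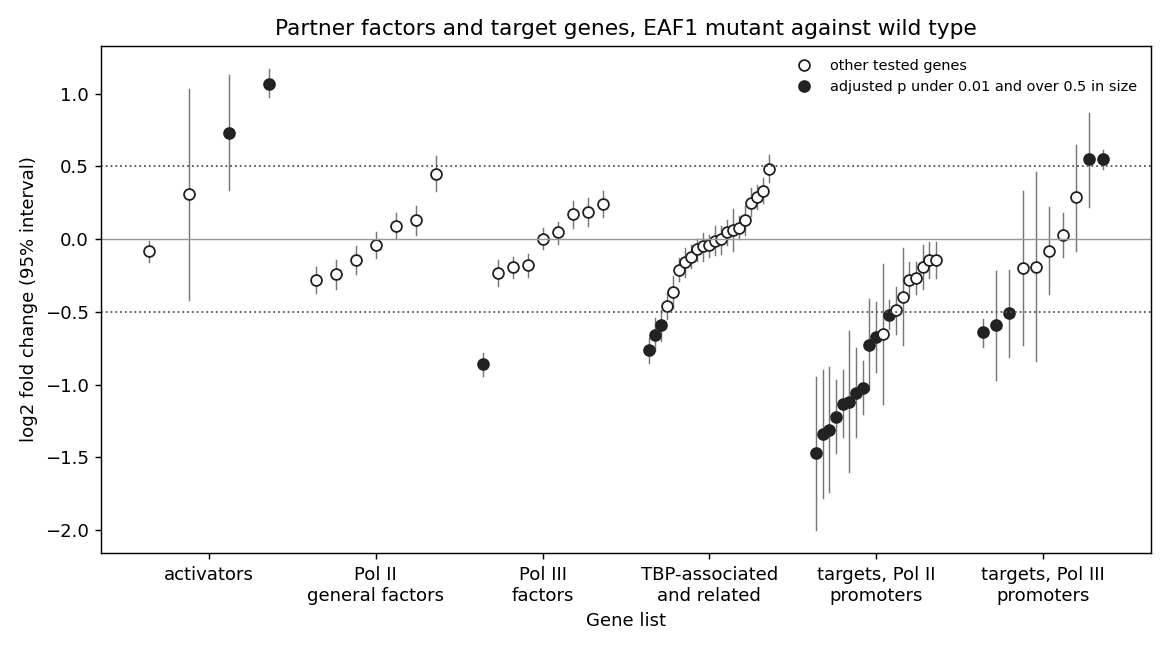
Log2 fold change in EAF1-mutant against wild-type cells of 41 partner factors and 29 tested target genes by list, with 95% intervals; filled points passed the study's thresholds. Partners spread to both sides of 0, from -0.86 for GTF3A to 1.07 for ZNF76, while all 19 RNA polymerase II targets lie below 0.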

How the data were processed

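Ribosomal RNA-depleted total RNA was sequenced in 3 wild-type and 3 EAF1-mutant HEK293T libraries. The table used holds raw counts that the authors made from paired-end reads, with HISAT2 for mapping to GRCh38 and Rsubread for assignment to Ensembl genes. How strand and multi-mapped reads were treated is unknown here. Of 58395 identifiers, 57754 matched GENCODE version 44, which gave symbols, positions and exon lengths.

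In R 4.3.3, edgeR 4.0.16 took the deposited counts through filterByExpr (28025 genes kept), TMM scaling and quasi-likelihood tests between groups, unblocked, with Benjamini-Hochberg adjustment over all tested genes. Intervals are 95% intervals of the fitted coefficient. The fit was tested on simulated data. Library totals of 52541541 to 66611451 gave 248 to 12182 counts per library for the 10 genes, and the biological coefficient of variation was 4.11%. The study's thresholds are 0.01 for the adjusted p and 0.5 for the size of the log2 fold change; the first was also used alone. Neighbours are all other tested genes with a start within 5 Mb.

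Genes named were all 10 members and EAF1; per direction, the 4 partners with the largest change past the study's thresholds, and relatives of members; per polymerase, the 4 such targets with a mean of at least 1 CPM over all libraries; and the 3 genes nearest in profile to the member with the largest change. Members and lists were chosen with earlier results of these data known. Alternatives were DESeq2 1.42.0, library totals without TMM, RLE size factors, other filters, a block for replicate number, leaving out single libraries, other thresholds and windows of 2 and 10 Mb. The authors' ELL ChIP-seq table, coverage summed over replication-dependent histone genes, was not used here, nor were the PRO-seq, 4C-seq and biotinylation data.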

Additional observations from a re-analysis of the deposited data

How the results depend on the processing

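SNAPC4 and SNAPC5 stayed higher and POU2F1 lower at an adjusted p under 0.01 under all 12 other fits, with log2 fold changes of 0.60 to 0.76, 0.18 to 0.33 and -0.36 to -0.21. With a log2 fold change over 1 in size, 0 members were called higher. The share of all tested genes past that threshold was not counted, so this 0 is read no further. Library totals without TMM moved the median of all tested genes from 0.01 to 0.13 and the calls at the study's thresholds from 3071 higher and 2624 lower to 4169 and 1840. By their construction they moved every log2 fold change up, and put SNAPC2 at 0.10, SNAPC3 at 0.03, ZNF143 at 0.02, BDP1 at 0.03 and TBPL1 at 0.10, and, with no call made, SNAPC1 at 0.16, TBP at 0.17 and BRF2 at 0.14. Partners called higher then numbered 4 at the study's thresholds, and 17 higher and 7 lower at an adjusted p under 0.01 alone, where the calls over all tested genes went from 5736 higher and 5902 lower to 8339 and 4138. Targets called lower with library totals numbered 11 at the study's thresholds and 13 at an adjusted p under 0.01, instead of 14 and 17. With DESeq2, 1 partner was higher at the study's thresholds and 9 at an adjusted p under 0.01 alone, and 1 target was higher under either rule. Targets called lower were then 12 and 13. Over all tested genes DESeq2 called 2638 and 5003 higher and 2418 and 5539 lower, in the same order. Why was not tested. In fits lacking 1 library, the log2 fold change ran from -0.04 to 0.01 for SNAPC2, -0.03 to 0.09 for TBP, -0.02 to 0.05 for BRF2 and -0.06 to 0.02 for TBPL1. Partners called higher at the study's thresholds then ran from 1 to 4, where 2790 to 2924 of all tested genes were. Targets called higher, under either rule, ran from 1 to 2. All tested genes called higher at an adjusted p under 0.01 ran from 4935 to 5252. Targets called lower ran from 11 to 15 at the study's thresholds and from 15 to 20 at the adjusted p alone. All tested genes called lower then ran from 2493 to 2664 and from 5202 to 5965. These fits have fewer libraries. Replicate numbers are shared by the groups, but same-numbered libraries did not deviate together (correlations of -0.00252, -0.105 and 0.0339 over 19219 genes), and not every library correlated best with its own number. With the replicate number as a block, SNAPC4 was at 0.65, SNAPC5 at 0.21 and POU2F1 at -0.32. The members called were then 2 higher and 1 lower at an adjusted p under 0.01, where 5686 and 5847 of all tested genes were. The neighbours' median of SNAPC4 was 0.45 within 2 Mb and 0.22 within 10 Mb. Genes with under 1 CPM, such as POU2F3, had few counts, and the effect of depth on them was not tested.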

Other observations

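The nearest tested protein-coding genes on each side of the 3 members that changed, looked at after those changes were seen, gave 3 different pictures. Next to SNAPC4 on chromosome 9, ENTR1 rose by 0.43 in log2 (means of 63.6 and 85.8 CPM, edgeR adjusted p = 2.32e-09) and CARD9, on the other side, by 0.44, while GPSM1, the third gene on that side, had 0.06 (adjusted p = 0.35, edgeR). SNAPC4 at 0.65 was the highest of this row of genes. Next to POU2F1 on chromosome 1, ILDR2, the nearest upstream, stood at -0.67 (means of 14.7 and 9.28 CPM, edgeR adjusted p = 2.60e-08), POGK, the third gene on that side, at -0.61 and CREG1, the nearest downstream, had -0.34 (adjusted p = 6.66e-07, edgeR). TADA1, between ILDR2 and POGK, had -0.47, and further downstream MPZL1 had -0.28 and ADCY10 -0.25 (adjusted p = 0.345, edgeR, not past the test).

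SNAPC5 on chromosome 15 stood against its row. RPL4, which ends next to it, went from 1590.0 CPM down to 1045 CPM, or -0.60 in log2 (edgeR adjusted p = 6.76e-13), and ZWILCH, TIPIN and DIS3L had -0.48, -0.42 and -0.45. MAP2K1, which overlaps SNAPC5 on the opposite strand, had -0.15 (adjusted p = 0.0064, edgeR), so SNAPC5 and MAP2K1 changed in opposite directions. ENSG00000261351 and MIR4512 overlap SNAPC5 on its own strand, with -0.07 (adjusted p = 0.365, edgeR) and -0.59 (adjusted p = 0.0999, edgeR), neither past the test. No cause was tested for any of these values.

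RN7SK made up 1.37%, 1.31% and 1.32% of wild-type counts, library by library, and 2.08%, 2.14% and 2.11% in the EAF1-mutant libraries, more than any factor described here.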
